A study of Mus musculus with 16 samples.

Results

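Cells labelled Pharyngeal endoderm made up 718 of the 37841 cells analysed (1.90%) in chimeric mouse embryos that mixed *Stat3* null and wild-type (WT) cells. Their members were all singlets to which the authors' label transfer from an atlas of mouse gastrulation and early organogenesis gave this name, with 4 of 722 left out because they were sorted as WT and carried a tdTomato transcript. tdTomato-expressing *Stat3* null embryonic stem cells (ESCs) of CD1 background, derived in culture, had been injected into WT CD1 host blastocysts. Embryos with a substantial share of donor cells were collected on 3 embryonic days, E7.5, E8.5 and E9.5, pooled at the earlier stages, dissociated and sorted. tdTomato-positive cells are called null and tdTomato-negative cells WT, so both genotypes came from the same embryos. All WT cells had thus developed beside null cells. No library held WT cells from injected ESCs. In every comparison of null with WT below, genotype can therefore not be told apart from ESC origin, culture, cell line or the tdTomato transgene. The transcripts were counted as unique molecular identifiers (UMIs) in 16 libraries of 3′ single-cell RNA, with 4 libraries of each genotype at E9.5 and 2 at either earlier stage.

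The pharyngeal endoderm is the front part of the embryonic gut tube. It folds outward into pouches that meet the surface ectoderm, sends signals such as Fgf8 and Shh to the neural crest and the mesoderm of the arches, and later gives rise to thymus, parathyroid and parts of the ear. *Pax9*, *Pax1*, *Tbx1* and *Eya1* encode transcriptional regulators used in pouch development, *Foxa2* encodes a forkhead factor of the endoderm, and *Epcam* encodes an epithelial surface protein. STAT3 is the transcription factor activated through gp130 cytokine receptors, and *Socs3* encodes its feedback inhibitor.

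The cells came from 13 of the 16 libraries, with 344 null and 374 WT cells. E7.5 gave 4 cells, all from 1 null library, E8.5 gave 311 and E9.5 gave 403. The libraries are named A to D within a group, and a letter is only a name. At E8.5, WT A and B held 65 and 130 cells, and null A and B held 90 and 26. At E9.5, WT A to D held 46, 43, 14 and 76 cells, and null A to D held 121, 50, 21 and 32. The 12 libraries of these stages held 566040 to 4156413 UMIs in these cells, and the median cell of a library held 15641 to 57259. No cell barcode was shared between members of different libraries (0 of 718). By the study's account 2 embryos were taken at E9.5 against 4 libraries of each genotype, so the number of independent embryos behind those libraries is not known, and p-values measure the spread between libraries. *Xist*, the RNA of the inactive X chromosome, split the E9.5 WT libraries, with 0 CPM in A and D and 671 and 684 CPM in B and C. The null libraries had 0.962, 48.2, 15.5 and 1.51 CPM in A to D, and haemoglobin, given further on, was also higher in A and D than in B and C of each genotype. Libraries of 1 embryo may thus be counted as separate samples, in which case the E9.5 p-values are too small. The labels tie no library to an embryo, so none were merged.

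The label was only partly borne out by its markers. *Epcam* was detected in 99.7% of E8.5 and 99.3% of E9.5 cells after each cell was thinned to 10000 UMIs (100% unthinned). Levels are CPM, the UMIs of a gene scaled to a common library total, from the summed cells of each library with over 15 cells. *Pax9* lay at 43.4 ± 12.7 CPM (SD, n = 4 libraries) at E8.5 and 44.9 ± 10.7 CPM (n = 7) at E9.5, against 12.4 and 0.67 CPM in cells labelled Foregut. It did not set the label apart from all neighbours: Thyroid primordium had 52.0 and 37.3 CPM, and the 1 E9.5 Hindgut library had 88.0 CPM. *Tbx1* lay at 67.0 and 47.8 CPM against 16.8 and 0 CPM in Foregut and 14.1 and 33.9 CPM in Thyroid primordium, whose E9.5 libraries (21.4 to 52.2 CPM) overlapped those of the label. *Foxa2*, in contrast, lay at 3.30 and 7.98 CPM, whereas Foregut had 58.7 and 56.3 CPM and Thyroid primordium 24.4 and 21.5 CPM. A *Foxa2* UMI was found in 3.22% of E8.5 cells (5.47% unthinned), against 40.7% to 43.5% of Foregut, Gut tube, Midgut and Hindgut cells thinned alike, whose median depths were 20132 to 22805 UMIs per cell. The related factor *Foxa1* (6.60 and 9.01 CPM), the secreted ligand *Shh* (4.35 and 9.63 CPM) and the gut gene *Spink1* (4.07 and 0.883 CPM) were low as well, and Foregut reached 75.0, 46.2 and 492 CPM of them at E8.5. Since labels were transferred by expression, these differences between labels are descriptions without a test.

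Some genes usually found in surface ectoderm were present under the same label, and others were low. *Tfap2a*, a regulator of surface ectoderm and neural crest, lay at 42.7 and 34.1 CPM at the 2 stages, against 0 and 2.22 CPM in Foregut and 95.8 and 107 CPM in cells labelled Surface ectoderm. *Foxi2*, a forkhead gene of the cranial ectoderm, lay at 35.4 and 39.6 CPM, about the level of Surface ectoderm (34.3 and 36.7 CPM). *Wnt6*, which encodes a ligand made by surface ectoderm, lay at 33.6 and 34.6 CPM, far under the 303 and 341 CPM of Surface ectoderm. Thyroid primordium held little of the 3 genes at E8.5 (2.02 CPM of *Tfap2a*, 0 CPM of *Foxi2* and 0.175 CPM of *Wnt6*), but at E9.5 it held 28.8, 40.9 and 42.8 CPM of them, so they did not set the label apart from this neighbour there. *Trp63*, a regulator of stratifying epithelium, lay at 5.54 CPM at E8.5 and 35.5 CPM at E9.5. The other surface ectoderm markers of the list written beforehand were lower. *Tfap2c* lay at 0.863 to 8.16 CPM and *Krt5* at 0 to 3.61 CPM across the E8.5 and E9.5 libraries. *Krt14* lay at 1.73 to 4.68 CPM at E8.5 and 6.81 to 24.7 CPM at E9.5. Of the 4 thyroid markers, *Nkx2-1* and *Hhex* had 0 and 1.58 CPM at E8.5, whereas *Pax8* had 26.8 CPM at E8.5 and 22.8 CPM at E9.5, and *Foxe1* had 13.9 and 88.8 CPM. Thyroid primordium held 48.9 and 18.1 CPM of *Pax8* and 234 and 313 CPM of *Foxe1*. *Cdx2* of the hindgut had 0.938 CPM at E8.5. *Tfap2a*, *Foxi2*, *Nkx2-3* and *Spink1* were added to the marker check after their values were seen.

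**Figure D1:**
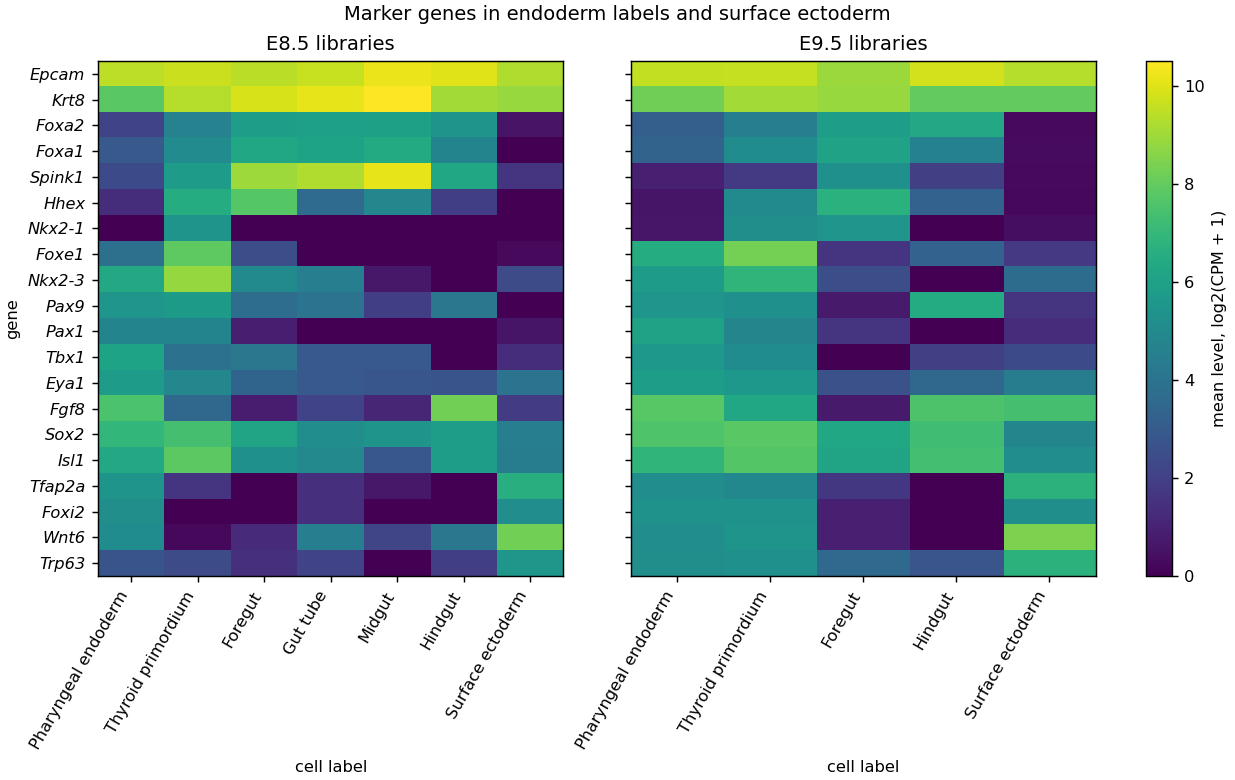
Mean level of marker genes, as log2(CPM + 1) over libraries with over 15 cells, in endoderm labels and Surface ectoderm at E8.5 (left) and E9.5 (right). Pharyngeal endoderm holds *Pax9*, *Pax1* and *Tbx1* with little of the *Foxa2* and *Spink1* of Foregut, and it holds *Tfap2a*, *Foxi2* and *Wnt6*. Labels with no library over 15 cells at a stage are not drawn.

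Within the label, *Pax9* and *Tfap2a* were seldom found in the same cell, while the wider sets overlapped more. *Pax9*, *Pax1* or *Nkx2-3* was found in 31.1% of E8.5 cells with *Tfap2a*, *Foxi2* or *Wnt6* and 61.9% of those without, and in 28.9% and 55.3% at E9.5. A *Tfap2a* UMI was found in 6.06% of the 66 E8.5 cells with a *Pax9* UMI and in 41.2% of the 245 without one. At E9.5 these shares were 2.35% of 85 and 31.1% of 318 cells. *Pax1*, the close relative of *Pax9*, was found in 31.8% of *Pax9* cells and 6.53% of the others at E8.5, and in 57.6% and 14.8% at E9.5. *Nkx2-3*, a homeobox gene of the pharynx, was less separate: *Tfap2a* was found in 28.9% of the 90 E8.5 cells with it and 35.7% of the 221 without, and in 18.7% and 26.9% at E9.5. Among the ectodermal genes themselves, *Foxi2* was found in 41.0% of E8.5 cells with *Tfap2a* and 17.5% of those without, and in 45.5% and 10.6% at E9.5. *Foxa1* or *Foxa2* was detected in 12.0% of the 142 E8.5 cells with *Pax9*, *Pax1* or *Nkx2-3* and in 1.77% of the 113 cells with *Tfap2a*, *Foxi2* or *Wnt6* and none of those. At E9.5 it was detected in 15.6% of 179 and 1.69% of 118 such cells.

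Cells of both kinds occurred in each of the 12 libraries. *Pax9*, *Pax1* or *Nkx2-3* was detected in 45.7% of E8.5 and 44.4% of E9.5 cells, and *Tfap2a*, *Foxi2* or *Wnt6* in 52.7% and 41.2%. Both sets were detected in 16.4% and 11.9%, and neither in 18.0% and 26.3%. At E8.5 a *Tfap2a* UMI was found in 33.8% of the cells (49.2% unthinned), against 0% of 110 Foregut and 0.885% of 113 Midgut cells thinned alike. At E9.5 it was found in 25.1%, against 17.5% of 160 Thyroid primordium, 19.2% of 52 Gut tube and 2.44% of 82 Foregut cells. The part of free RNA in these shares was not tested. The *Epcam* cells of the label thus differed among themselves in these genes, and what follows describes them by their label.

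**Figure D2:**
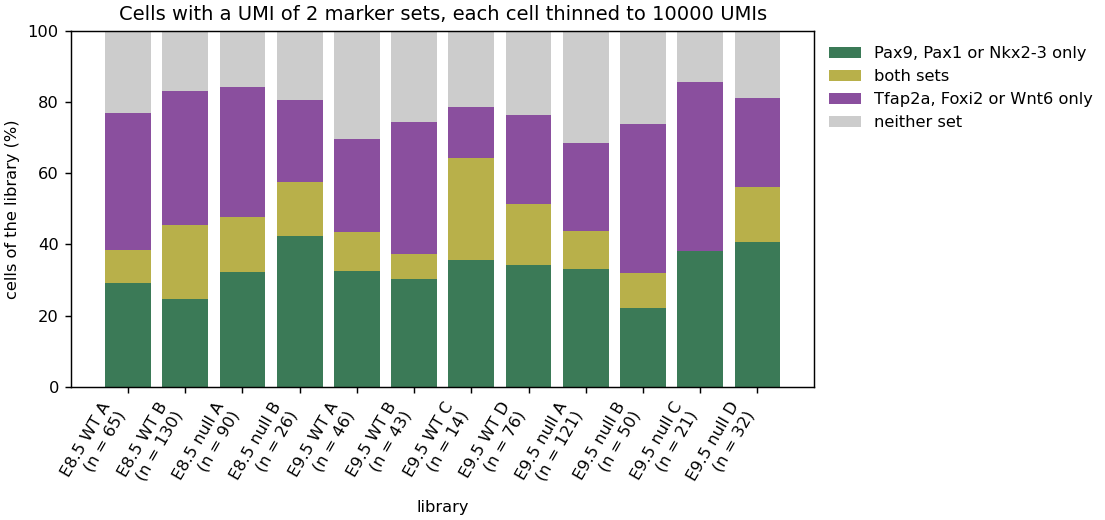
Share of cells in each library with a UMI of *Pax9*, *Pax1* or *Nkx2-3*, of *Tfap2a*, *Foxi2* or *Wnt6*, of both or of neither, after thinning each cell to 10000 UMIs. Every library holds cells of both sets, and the cells with both are 0% to 28.6% of a library.

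The 4 E7.5 cells carried *Epcam* UMIs in all 4, *Tfap2a* and *Wnt6* in 3 each and no *Pax9*, *Pax1* or *Foxa2* UMI after thinning. They mapped to 4 different atlas stages from E8.25 to E9.0. They entered no comparison.

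The targeted gene was reported first. *Stat3* UMIs were sparse, in 0.643% of thinned E8.5 cells and 3.97% of E9.5 cells. WT A and B had 2.02 and 0.451 CPM at E8.5, and null A and B 0.432 and 0 CPM. At E9.5, WT A, B and D had 6.50, 5.25 and 4.18 CPM, and null A to D 2.17, 4.43, 2.45 and 0 CPM. Null B lay above WT D, and 3 of the 4 null libraries lay under all WT libraries. Averaged over the stages, null libraries differed from WT by −2.03 CPM, with p = 0.0286 in an exact permutation of genotypes inside each stage (two-sided, smallest possible 0.00476), and without single libraries p ranged from 0.0111 to 0.0889. The null allele carries a neomycin resistance cassette in place of exons for the SH2 and transactivation domains, and a 3′ tag outside those exons does not test the deletion. *Socs3* lay between 7.80 and 14.8 CPM in all 12 libraries, with log2 fold changes null over WT of −0.23 (SE 0.35, adjusted p = 1) at E8.5 and −0.19 (SE 0.28, adjusted p = 0.967) at E9.5.

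The share of these cells among all cells of a library was not called as different by genotype. At E8.5 the label took 2.56% and 3.40% of the cells in WT A and B and 2.35% and 2.27% in null A and B. Both null libraries lay under both WT libraries. The log2 fold change of abundance was −0.38 (SE 0.30), with adjusted p = 1.00 over 68 cell types (edgeR quasi-likelihood test), and it was −0.54 without WT A and −0.19 without WT B. At E9.5 it took 1.49%, 1.63%, 0.735% and 1.92% in WT A to D and 2.80%, 2.07%, 1.32% and 2.07% in null A to D. These ranges overlapped, and the log2 fold change was 0.49 (SE 0.40, adjusted p = 0.963 over 71 types). It was 0.24 without WT C, 0.27 without null A and up to 0.62 without null C.

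As a share of the 6 endoderm labels (Pharyngeal endoderm, Thyroid primordium, Foregut, Gut tube, Midgut and Hindgut) the cells stood differently at the 2 stages. They made up 50.0% and 49.6% of endoderm cells in the E8.5 WT libraries and 32.7% and 26.8% in the null libraries. The E8.5 groups did not overlap, and with 2 libraries against 2 the exact permutation test cannot go under p = 0.333, which it gave. At E9.5 they made up 42.6%, 53.1%, 33.3% and 44.7% in WT A to D and 55.5%, 56.8%, 51.2% and 47.8% in null A to D. Here the null libraries were higher by 9.40 percentage points, and null C and D lay within the WT range (exact permutation test, p = 0.0857). The difference between stages was 29.4 percentage points (exact permutation within stages, p = 0.0143; this test was added after seeing the data), while the mean difference over both stages was −5.32 points (p = 0.386). Thyroid primordium made up 12.3% and 9.16% of E8.5 WT endoderm cells and 26.9% and 18.6% of null ones, and Midgut made up 10.8% and 13.4% of WT and 14.2% and 25.8% of null ones, so both labels took a larger share in the null libraries.

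**Figure D3:**
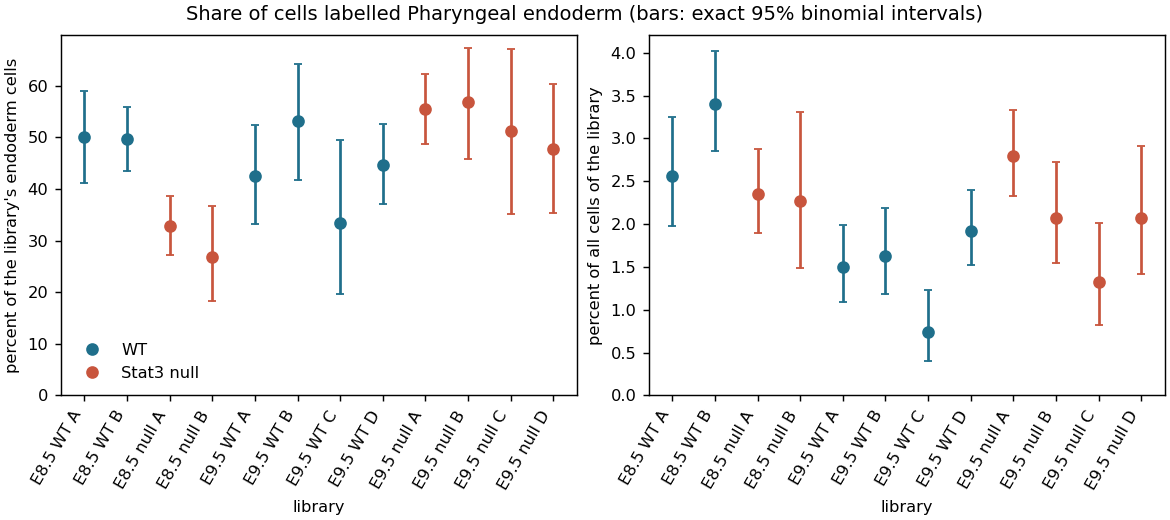
Cells labelled Pharyngeal endoderm as a percent of each library's endoderm cells (left) and of all its cells (right), with exact 95% binomial intervals that cover counting error only. E8.5 null libraries sit at 32.7% and 26.8% of endoderm cells under WT at 50.0% and 49.6%, and E9.5 null libraries sit at 47.8% to 56.8%.

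Null and WT cells mapped to similar atlas stages. Most cells mapped to E8.75 or E9.0 at both collection stages, including the E9.5 embryos. The library means averaged 8.84 days in null and 8.79 days in WT cells at E8.5, and 8.91 and 8.87 days at E9.5. The mean difference within stages was 0.0462 days (exact permutation test, p = 0.243).

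At E8.5, 11 of 9091 genes tested were called between null and WT (0.121% called), at an adjusted p under 0.05 and a fold change over 2. 8 were higher (0.088%) and 3 lower (0.033%) in null cells. The lead among the pouch regulators was *Pax1*, which lies on the plus strand of chromosome 2 at 147361925 to 147393295 (GRCm38). It had 13.6 and 11.7 CPM in WT A and B and 41.0 and 35.9 CPM in null A and B. Both null libraries lay well above both WT libraries, with a log2 fold change of 1.63 (SE 0.27, adjusted p = 0.000153). *Pax1* lost its call with DESeq2, in a fit over both stages, and without any single E8.5 library.

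The *Pax1* difference was also measured where the ectodermal genes were not detected. In cells without a UMI of *Tfap2a*, *Foxi2* or *Wnt6*, *Pax1* lay at 24.5 and 25.1 CPM in the WT and 85.7 and 58.5 CPM in the null libraries. These groups stayed apart. Cells with one of the 3 genes held 0 and 2.31 CPM in WT and 0.820 and 0 CPM in null. Cells without them made up 52.3% and 41.5% of the WT and 47.8% and 61.5% of the null libraries, so their share overlapped between genotypes. After thinning, cells with a *Nkx2-3* UMI made up 21.5% and 33.1% in WT and 25.6% and 38.5% in null, which overlapped. Cells with a *Pax9* UMI made up 18.5% in both WT libraries and 21.1% and 42.3% in null, which did not. The part of the mix of cells in the *Pax1* difference was not tested. The share of cells with a *Pax1* UMI after thinning was 7.69% in both WT libraries and 18.9% and 19.2% in null A and B. *Pax1* had 27 and 26 UMIs in the WT and 95 and 23 UMIs in the null libraries. *Pax9* had 37.4 and 31.6 CPM in WT and 43.6 and 60.9 CPM in null cells, and its log2 fold change of 0.50 (SE 0.22, adjusted p = 1) was not called. *Pax8*, a relative used in thyroid and ear, had 18.7 and 17.6 CPM in WT and 38.0 and 32.8 CPM in null cells, with a log2 fold change of 1.00 (SE 0.26) at adjusted p = 0.0981.

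The metallothionein genes *Mt1* and *Mt2*, whose products bind zinc and other metals, were lower in E8.5 null cells. *Mt1* had 304 and 316 CPM in WT and 144 and 112 CPM in null cells, a log2 fold change of −1.23 (SE 0.13, adjusted p = 1.62e-09). *Mt2*, its neighbour on chromosome 8, had 124 and 117 CPM in WT and 69.9 and 45.3 CPM in null cells, a log2 fold change of −0.95 (SE 0.17, adjusted p = 0.000279). WT and null did not overlap for either gene. At E9.5 neither was called: *Mt1* had 143, 84.7 and 65.9 CPM in WT A, B and D and 112, 95.5, 148 and 120 CPM in null A to D, so the ranges overlapped. *Mt1* kept its E8.5 call with DESeq2 and limma-voom. It lost it in the fit over both stages, with all libraries and without any single E8.5 library.

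Since *Mt1* and *Mt2* moved together, the 250 bases before the RefSeq start of each are shown (GRCm38.p6), beside those of the known STAT3 target *Socs3*, which was not called. Capitals mark matches on either strand to TGCNCNC and to TTCNNNGAA, the STAT type of palindrome. TGCNCNC is a looser string than the core of the metal response element, TGCRCNC, where R is A or G. *Mt1* is at chr8:94178839-94179088 (plus strand), *Mt2* at chr8:94172368-94172617 (plus strand) and *Socs3* at chr11:117969367-117969616 (minus strand).
Mt1: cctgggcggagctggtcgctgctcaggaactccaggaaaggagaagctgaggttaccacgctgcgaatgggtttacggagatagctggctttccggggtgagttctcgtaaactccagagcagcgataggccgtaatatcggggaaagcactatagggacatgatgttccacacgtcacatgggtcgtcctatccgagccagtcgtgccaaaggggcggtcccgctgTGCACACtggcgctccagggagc
Mt2: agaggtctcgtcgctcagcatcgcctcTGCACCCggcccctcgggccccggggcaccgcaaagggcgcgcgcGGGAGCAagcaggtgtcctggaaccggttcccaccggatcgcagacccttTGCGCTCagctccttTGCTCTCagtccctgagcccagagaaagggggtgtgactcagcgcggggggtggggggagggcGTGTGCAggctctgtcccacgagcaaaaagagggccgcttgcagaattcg
Socs3: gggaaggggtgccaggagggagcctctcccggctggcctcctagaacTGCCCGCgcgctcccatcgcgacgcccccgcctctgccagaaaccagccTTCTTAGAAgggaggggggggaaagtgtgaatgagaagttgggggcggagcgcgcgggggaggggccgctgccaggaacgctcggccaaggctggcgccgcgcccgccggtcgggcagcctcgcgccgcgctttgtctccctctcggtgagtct
*Mt1* held 1 and *Mt2* 5 matches to TGCNCNC, and neither held TTCNNNGAA. *Socs3* held 1 match of each, the TTCNNNGAA match 154 bases before the start. The stretch TGCCCGC of *Socs3* and the stretches GGGAGCA and TGCTCTC of *Mt2* match TGCNCNC and not TGCRCNC. Of 32851 RefSeq promoter windows of 250 bases, 44.4% held TGCNCNC and 7.02% TTCNNNGAA. The motifs do not overlap in these windows, and a match is a description of letters. Bases outside the windows, including those after the RefSeq start used, were not searched, so the counts do not rank the promoters.

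Other genes called at E8.5 included sparse ones, and these calls depended on the setting. Of the 11 E8.5 calls 2 were kept with DESeq2, 2 in the fit over both stages and 5 with limma-voom. With only tdTomato-positive null cells 8 were kept, with library size scaling 10 and with no low-count filter 11. Most were also lost in the fit over both stages without 1 E8.5 library, which leaves 1 library in its group. *Hmx2*, a homeobox gene of the otic region, had 1.01 and 4.06 CPM in WT and 13.0 and 17.2 CPM in null cells (log2 fold change 2.40, SE 0.52, adjusted p = 0.0138). *Zdbf2*, an imprinted gene, had 60.1 and 46.5 CPM in WT and 120 and 93.6 CPM in null cells (1.06, SE 0.17). *Pop4*, a subunit of RNase P, *Tcp11l1* and the zinc finger genes *Zfp979* and *Zfp990*, whose close copies can share reads, were also called higher, at log2 fold changes of 1.15, 1.17, 2.94 and 1.32. *Adamts1*, a secreted matrix protease, had 20.2 and 11.3 CPM in WT and 3.89 and 4.68 CPM in null cells (−1.93, SE 0.45, adjusted p = 0.0374). *Hist1h4i*, one of many histone H4 copies, had 49.5 and 45.1 CPM in WT and 15.5 and 12.5 CPM in null cells (−1.68, SE 0.26). A further 8 genes, named after their values were seen, passed the adjusted p alone (0.209% of genes did so in all), among them *Tmem14c*, *Cwc22*, *Igf2*, *Igfbp2* and *Slc38a4* higher and *Mt2*, *Eif3j1* and *Rnf121* lower.

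At E9.5, 8 of 9287 genes were called (0.0861%), 5 higher (0.0538%) and 3 lower (0.0323%), in WT A, B and D against null A to D. WT C, with 14 cells, was under the minimum and is given in parentheses. *Cwc22*, which encodes a splicing factor, had 41.3, 36.0, (42.4) and 39.4 CPM in WT A to D and 184, 154, 153 and 184 CPM in null A to D. Every null library lay above every WT library, with a log2 fold change of 2.12 (SE 0.12, adjusted p = 1.77e-12). At E8.5 it had 63.7 and 64.5 CPM in WT and 121 and 140 CPM in null cells (0.99, SE 0.16, adjusted p = 5.83e-05). *Cwc22* was also the 1 gene of 9873 (0.0101%) whose genotype difference was called as changing between stages (log2 1.14, SE 0.19, adjusted p = 0.0152), a call lost without any of 6 of the 11 libraries. This gene has near copies in the mouse genome, so its counts are uncertain between them.

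*Grb10*, an imprinted gene that encodes an adaptor restraining insulin and IGF signals, had 528, 451, (454) and 426 CPM in E9.5 WT A to D and 32.2, 36.4, 16.3 and 9.08 CPM in null A to D. The null libraries were far below all WT libraries (log2 −4.14, SE 0.31, adjusted p = 0.0124). A *Grb10* UMI was found in 9.52% to 12.5% of thinned null cells and 92.9% to 97.8% of WT cells of a library. At E8.5 the null libraries split: WT A and B had 294 and 286 CPM, null A had 23.3 CPM and null B had 304 CPM, at the WT level. A tdTomato UMI was found in 76.9% of the 26 cells of null B and in 92.2% to 100% of the cells of the other E8.5 and E9.5 null libraries. A *Grb10* UMI was found in 84.6% of thinned E8.5 null B cells (100% unthinned) and in 13.3% of thinned E8.5 null A cells. *H19* in null B was at 23.4 CPM, against 250 CPM in null A and 783 and 690 CPM in WT, so null B was not at the WT level for that gene. *Grb10* lost its E9.5 call in the fit over both stages, with all libraries and without any single E9.5 library. *H19*, an imprinted noncoding RNA beside *Igf2*, had 1416, 954, (986) and 1222 CPM in E9.5 WT and 65.7, 109, 17.1 and 117 CPM in null libraries, but its log2 fold change of −3.94 (SE 0.47) had adjusted p = 0.0936. *Igf2*, the growth factor gene next to it, had 366, 292, (322) and 275 CPM in WT and 640, 628, 425 and 522 CPM in null libraries (0.85, SE 0.13, adjusted p = 0.0256).

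Other E9.5 calls were *Phtf2*, *Hist2h2ac*, *BC048679* and *Tubb6*, higher at log2 1.21, 1.17, 1.41 and 1.07, and *Nbl1* and *Pusl1*, lower at −1.76 and −1.60. *Phtf2* had 15.9, 21.7, (17.7) and 18.6 CPM in WT and 48.4, 38.9, 36.7 and 44.7 CPM in null libraries (SE 0.18, adjusted p = 0.000358), and kept its call in every alternative run. *Nbl1*, which encodes a secreted BMP antagonist, had 9.45, 8.25, (12.4) and 10.7 CPM in WT and 2.41, 2.95, 4.08 and 2.27 CPM in null libraries (SE 0.37, adjusted p = 0.0292). *Pusl1*, a pseudouridine synthase-like gene, had 11.8, 22.5, (26.5) and 25.5 CPM in WT and 6.50, 4.92, 8.16 and 7.57 CPM in null libraries. In each the groups were apart, which the rule for naming called genes required. *Zdbf2*, *Slc38a4*, *Hey1*, *Psmd8* and *Yif1b* were higher and *Tpm3-rs7*, *Csnk2a1*, *Ifitm1*, *Mzt1* and *Tpm1* lower at an adjusted p under 0.05 and under the fold threshold (0.215% of genes passed the adjusted p alone). *Hey1*, a Notch target, had 31.9, 29.2, (84.8) and 33.4 CPM in WT and 46.2, 55.1, 67.7 and 62.8 CPM in null libraries, so WT C lay above the null range. No gene was called at both stages, and *Cwc22*, *Zdbf2*, *Slc38a4* and *Igf2* were among those that passed the adjusted p at both, in the same direction.

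**Figure D4:**
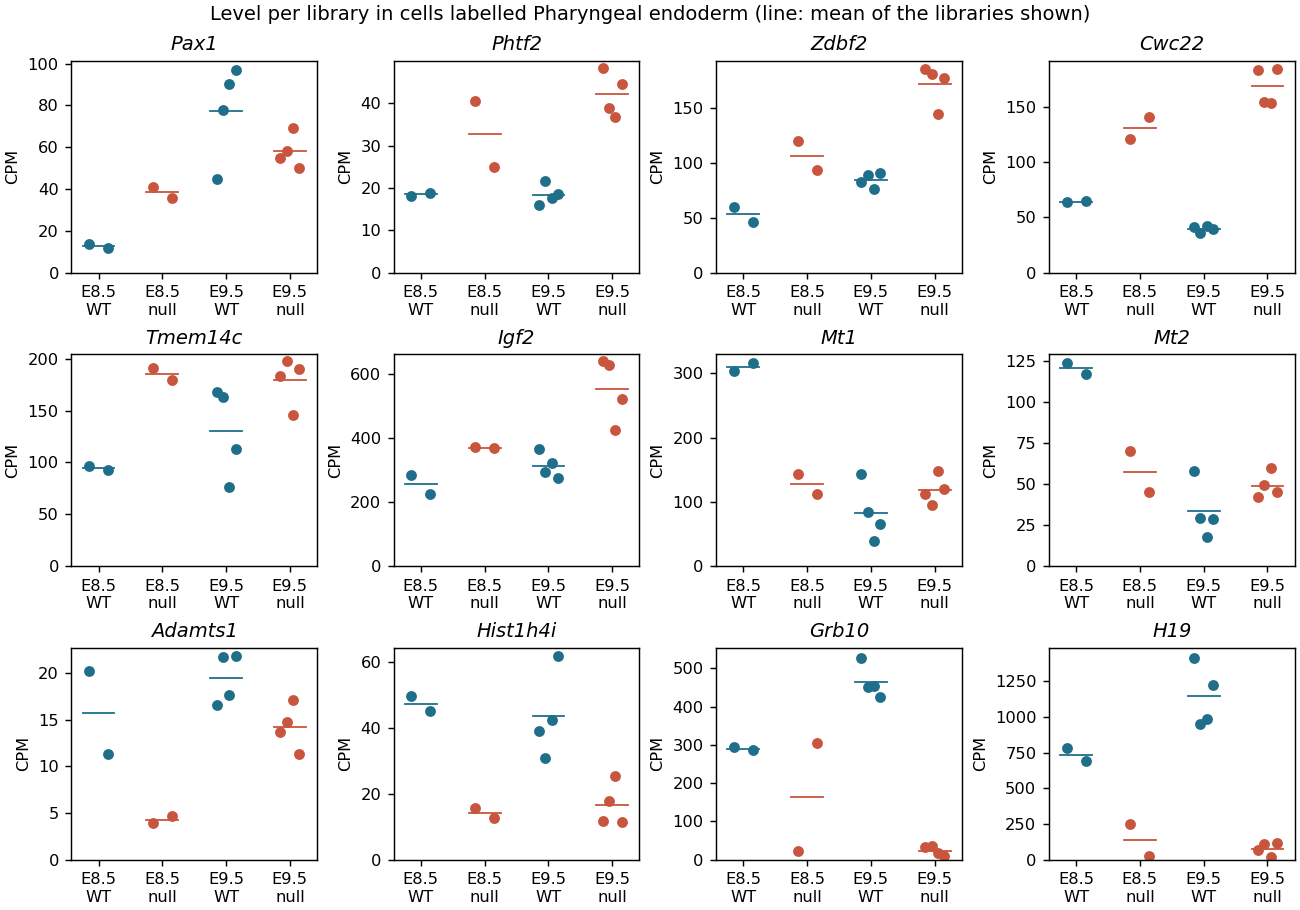
Level in CPM of 12 genes in the summed cells of each library, with a line at the mean of the libraries shown, E9.5 WT C included. *Zdbf2* and *Cwc22* are higher in every null library at both stages, *Pax1*, *Mt1* and *Mt2* are apart at E8.5, and *Grb10* is at the WT level in 1 of the 2 E8.5 null libraries.

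Blood transcripts moved with genotype at E9.5. Haemoglobin UMIs took 909, 234, 258 and 676 CPM in E9.5 WT A to D and 49.6, 9.85, 11.4 and 58.3 CPM in null A to D, and 1402 and 1091 CPM in E8.5 WT and 1126 and 286 CPM in E8.5 null. The summed level of the 5 erythroid markers ranged from 87.0 to 362 CPM in E9.5 WT and from 3.45 to 27.2 CPM in null libraries. *Gata1* and *Klf1*, which define erythroid cells, were at 0 in several libraries of both genotypes. Within each genotype, haemoglobin was also lower in every E9.5 library than in the E8.5 libraries. The part of these transcripts in the differences by genotype or by stage was not tested.

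The lists of pathway genes held few genotype differences that were called, and a gene without a call is not shown to be unchanged. Of 28 pouch regulators tested at E8.5, *Pax1* alone was called, and the list's median log2 fold change was −0.01, against 0.00 over all genes. At E9.5, 0 of 29 were called (edgeR; median 0.15). An unadjusted p under 0.05 was reached by 4 of these regulators at E8.5 and 8 at E9.5, against 383 of all 9091 and 572 of all 9287 genes. No call was made (0) at E8.5 or E9.5 among 30 ligands and 21 endodermal and epithelial genes, where 2 and 6 ligands and 2 and 2 epithelial genes had an unadjusted p under 0.05. The same held for the STAT3 pathway, with 25 and 27 genes tested, 0 called, 2 and 0 at an unadjusted p under 0.05 and medians of −0.01 and −0.02. *Fgf8*, the arch ligand, had log2 fold changes of −0.06 (SE 0.13) and 0.21 (SE 0.33), *Bmp4* −0.26 and 0.34, *Fgf3* 0.61 and −0.56, and *Tbx1* 0.34 and −0.31, all at adjusted p over 0.8. *Zdbf2* at E8.5 and *Grb10* at E9.5 were the called imprinted genes, of 34 and 37 tested (0.121% and 0.0861% of all genes were called). At an adjusted p under 0.05 alone the list held 3 and 4 genes (0.209% and 0.215% of all genes), and at an unadjusted p under 0.05 it held 7 and 6.

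The genotype differences were tested against the other 5 endoderm labels, in a fit with the library as a block that was added after seeing the data. At E8.5, 13 of 9958 genes differed in genotype effect (0.131%), and at E9.5, 4 of 9906 (0.0404%). *Pax1* differed by 4.87 at E8.5 (adjusted p = 2.54e-05), with log2 fold changes of 1.63 here and −3.27 in the other endoderm. Outside the label it lay at 25.5 CPM in E8.5 Thyroid primordium (0 to 64.8 CPM by library) and 0.836 CPM in Foregut. *Otx2* differed at both stages, by −1.92 and −2.37, with log2 fold changes of 1.61 and 1.74 in the other endoderm. Labels were transferred by expression, so a cell's label can itself depend on such genes. The test cannot separate a genotype effect from a shift of cells between labels, and its p-values are descriptions. The other endoderm also summed a changed mix: Thyroid primordium made up 12.3% and 9.16% of E8.5 WT and 26.9% and 18.6% of null endoderm cells. *Cwc22*, *Zdbf2*, *Grb10* and *Mt1* were not called as different: at E9.5 *Cwc22* changed by 2.12 in both, with adjusted p = 1.

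The stage comparison described how the label's cells differed between E8.5 and E9.5, though stage cannot be told apart from library preparation. In WT cells 298 of 9404 genes were called (3.17%), 219 higher (2.33%) and 79 lower (0.84%) at E9.5, and 915 passed the adjusted p alone (9.73%). In null cells 198 of 9368 were called (2.11%), 145 higher (1.55%) and 53 lower (0.566%), and 504 passed the adjusted p alone (5.38%). Of the genes called higher, 85 were shared, 38.8% of the WT and 58.6% of the null list. Of those called lower, 25 were shared, 31.6% and 47.2%. No gene was called in opposite directions (0).

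Of 30 pouch regulators tested in WT, 4 were called higher and 4 lower (median log2 −0.27, against 0.01 over all genes), where 2.33% and 0.84% of all genes were. Of 28 in null cells, 3 were called higher and 3 lower, where 1.55% and 0.566% of all genes were. *Pitx1* rose from 50.0 and 28.0 CPM in E8.5 WT to 148, 193, (178) and 201 CPM in E9.5 WT, and from 27.6 and 18.7 to 176, 250, 155 and 113 CPM in null cells. The log2 fold changes were 2.06 (SE 0.23, adjusted p = 0.000599) and 2.65 (SE 0.47, adjusted p = 0.0473). *Hoxb3* rose in both genotypes as well. *Otx2* fell in both, and *Irx3* and *Irx5* fell in WT by 1.56 and 1.67 on the log2 scale. In null cells they had log2 fold changes of −0.86 and −0.91 (adjusted p = 0.00154 and 0.00875), under the fold threshold.

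*Pax1* rose with stage in WT cells, from 13.6 and 11.7 CPM to 44.9, 78.0, (90.1) and 97.0 CPM (log2 2.38, SE 0.41, adjusted p = 0.0158). Null cells had 41.0 and 35.9 CPM at E8.5 and 54.9, 58.1, 69.3 and 50.0 CPM at E9.5, a log2 fold change of 0.39 (SE 0.19, adjusted p = 0.265). The E8.5 null level lay between the WT levels of the 2 stages. The test of this difference gave −1.98 (SE 0.43, adjusted p = 1), so it was not called. The WT call was lost without E8.5 WT A, E8.5 WT B or E9.5 WT B.

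Of 29 ligands 5 were called higher and 0 lower at E9.5 in WT (median 0.67), where 2.33% of all genes were called higher. In null cells 4 were called higher and 1 lower of 32 (median 0.49), where 1.55% of all genes were called higher. Most members did not pass the test. *Pdgfc*, a growth factor gene of craniofacial epithelia, rose from 10.6 and 6.77 to 60.2, 63.7, (54.8) and 38.5 CPM in WT (log2 2.45, SE 0.27) and from 10.4 and 3.12 to 52.0, 57.6, 57.9 and 44.7 CPM in null cells (2.47, SE 0.28). *Sema3c*, a guidance ligand, rose by 1.09 and 2.06. *Dlk1*, *Sfrp1* and *Edn1* were called in WT, by 1.68, 1.23 and 1.45, and *Bmp4* and *Wnt4* in null cells, by 2.04 and 1.47. In null cells *Dlk1*, *Sfrp1* and *Edn1* changed by 2.51, 0.94 and 0.04 (edgeR adjusted p = 0.120, 0.00298 and 0.991). *Wnt4* in WT changed by 0.67 (SE 0.22, edgeR adjusted p = 0.0546). *Bmp4* in WT changed by 1.44 (SE 0.67, adjusted p = 0.338). Among signal responses, *Lef1* and *Nrarp*, targets of Wnt and Notch, rose in both genotypes, and *Gli1*, a hedgehog target, rose in WT from 1.52 and 1.35 to 10.6, 11.2, (19.4) and 13.0 CPM. In null cells *Gli1* went from 3.45 and 1.56 to 11.1, 8.37, 13.9 and 7.57 CPM, without a call (1.60, SE 0.50, edgeR adjusted p = 0.0542).

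The lists of sterol synthesis and glycolysis genes were written after these calls were seen, so their counts and medians are a description and support no direction. Of 22 sterol synthesis genes 8 were called higher in WT and 7 in null cells and 0 lower, with medians of 0.93 and 0.85, against 2.33% and 1.55% of all genes called higher. *Hmgcs1*, which encodes the enzyme making HMG-CoA, rose from 50.0 and 28.4 to 136, 203, (210) and 142 CPM in WT (1.86, SE 0.27) and from 52.7 and 45.3 to 162, 193, 158 and 191 CPM in null cells (1.65, SE 0.15). Of 18 glycolysis genes 5 were called lower in WT (median −0.67), and of 17 in null cells 2 were called lower (median −0.60), against 0.84% and 0.566% of all genes. *Slc2a3*, a glucose transporter gene, fell from 311 and 471 to 116, 157, (86.6) and 97.9 CPM in WT (−1.86, SE 0.29) and from 234 and 449 to 89.3, 77.8, 66.9 and 101 CPM in null cells (−2.12, SE 0.32). *Ldha* and *Pgk1* fell in WT by 1.02 and 1.08, and in null cells they had log2 fold changes of −0.98 (adjusted p = 1.29e-07) and −0.96 (adjusted p = 7.09e-08), just under the fold threshold. With library size scaling alone these 2 WT calls and that of *Slc16a3* in null cells were lost, at the same direction, and the other called genes of both lists kept their call.

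Cell cycle genes showed no called change (0 of 40 S and G2/M genes in either genotype, edgeR; medians −0.16 and −0.14, against 0.01 over all genes in both). At an unadjusted p under 0.05 stood 11 of them in WT, against 2191 of all 9404 genes, and 8 in null cells, against 1692 of all 9368 genes. In the p53 list, *Cdkn1a*, which encodes the p21 cell cycle inhibitor, rose from 7.58 and 5.41 to 60.2, 55.5, (63.6) and 29.2 CPM in WT (2.69, SE 0.36) and from 10.8 and 1.56 to 78.0, 85.7, 111 and 60.6 CPM in null cells (3.12, SE 0.40). *Perp* rose in both, by 2.14 and 2.46. Median mitochondrial percent per library was 0.81 to 1.03 at E8.5 and 1.05 to 1.60 at E9.5, and its part in these changes was not tested. *Cdkn1c*, an imprinted gene encoding the p57 inhibitor, rose by 1.43 and 1.41.

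Among the genes with the largest stage changes, many were near 0 at one stage, and for those with few UMIs the level or count is given in place of a fold. *Pltp*, a phospholipid transfer gene, had 1 UMI over both E8.5 WT libraries and 56 over the 3 E9.5 WT libraries, and 1 and 107 in null cells. *Barx1*, a homeobox gene of the arches, had 2.02 and 1.35 CPM at E8.5 and 19.5, 45.7, (5.30) and 17.6 CPM at E9.5 in WT. *Bcl11a*, *Tubb3*, *Fgf18* and *Hspb1* were among the 10 most raised genes in both genotypes. *Upp1* and *St8sia3* were among the 10 most lowered in both, and *Upp1* went from 17.7 and 35.2 to 5.91, 1.50, (5.30) and 4.64 CPM in WT. *Pyy*, a peptide hormone gene, fell from 30.3 and 23.5 to 2.95, 2.25, (5.30) and 0 CPM in WT, and *Ret*, a receptor tyrosine kinase gene, from 25.8 and 16.7 to 4.72, 2.25, (0) and 5.10 CPM. *Pax2* fell in both genotypes, by 1.54 in WT and 2.36 in null cells on the log2 scale. *Sox17* was called lower in null cells (−3.06, SE 0.60), and in WT it had a log2 fold change of −0.23 (SE 1.17, adjusted p = 0.94).

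**Figure D5:**
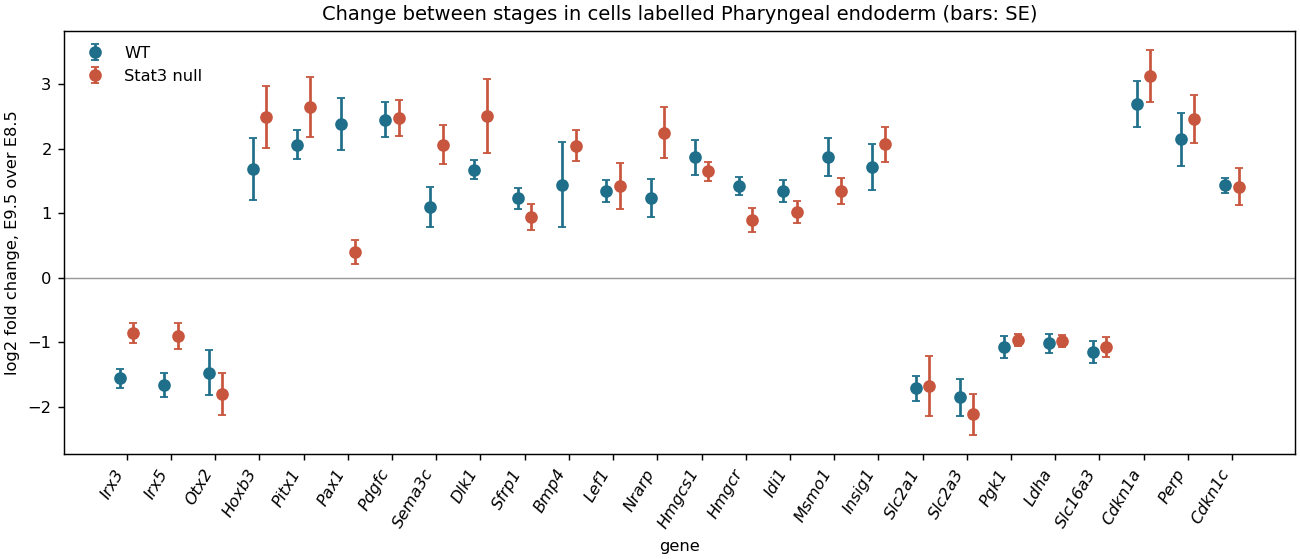
Log2 fold change between E8.5 and E9.5 with its SE (edgeR) for listed genes, in WT and null cells. The genes drawn were picked among those called in WT, in null cells or in both. Both genotypes point the same way for each of them, which this choice made likely. Of all genes tested in both genotypes 71.6% had the same sign, and of the WT calls 97.5%. *Pax1* is at 2.38 in WT and 0.39 in null cells.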

How the data were processed

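The authors aligned 3′ reads (10x Single Cell 3′ v3 chemistry) to mm10 with CellRanger, kept cells with over 10000 UMIs and within limits on genes, mitochondrial and ribosomal RNA, called doublets with scds and transferred cell type labels from the extended gastrulation atlas. The deposited cell table also holds the mitochondrial percent of each cell's UMIs and a mapping score, the share of nearest atlas cells with the transferred label, both made by the authors. The deposited matrix holds raw UMI counts of 29453 genes in 41832 cells. Left out were 3395 doublet calls and 596 WT-sorted singlets with a tdTomato UMI, which left 37841 cells with 10003 to 99964 UMIs each. UMIs of the labelled cells were summed per library, and libraries with over 15 cells were tested. Mitochondrial, ribosomal protein, haemoglobin, predicted, Riken and Y chromosome genes, *Xist*, *Tsix* and the reporter were left out of the tests (8167 genes), and 21286 stayed in. Imprinted genes, which the study's own tests left out, were kept.

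The main test was edgeR 4.0.16 (quasi-likelihood, TMM, low-count filter, Benjamini-Hochberg adjustment, R 4.3.3), called at an adjusted p under 0.05 and an absolute log2 fold change over 1. DESeq2 1.42.0, limma 3.58.1 (voom), library size scaling, no low-count filter, 1 fit over both stages, only tdTomato-positive null cells and leaving out each library were alternatives. For null against WT each library was left out of the fit over both stages. Those runs thus differ from the main test in the fit as well as in the library. The scripts were tested on simulated data. Cells were thinned to 10000 UMIs for shares with a UMI. Shares, atlas stage and *Stat3* were compared by exact permutation of libraries (SciPy 1.17.1). Named were, of the called genes whose groups were apart, the 10 with the largest fold change each way, called members of the gene lists and the members that define each list. That groups were apart in genes named by this rule is thus no further support for their calls. The cells, lists and markers were chosen with earlier results of these data known. Replicate libraries differed beyond sampling noise (chi-square per degree of freedom 1.98 to 4.17), so each counted as 1 sample. Gene coordinates are from GENCODE M21 (GRCm38) by symbol. Intervals cover counting error only. Some genes are not reported here.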

Additional observations from a re-analysis of the deposited data

Results flagged for a closer look

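Of 121 genes looked at in the 4 libraries of a group, 5 had 1 library far from the others, which is not above the 1 in 20 or so that chance gives, so the values below are descriptions. All 5 were in E9.5 null libraries, the only group in which 4 libraries held over 15 cells, so this placement says nothing about genotype. *Tbx1* had 15.3 CPM in null B, against 52.2 to 53 CPM in the others. *Igf1* had 36.7 CPM in null C, against 2.95 to 5.77 CPM. *Pax2* had 11.4 CPM in null D, against 2.95 to 3.26 CPM. *Nkx2-1* had 3.37 CPM in null A and 0 CPM in the others. *Mal* had 2.95 CPM in null B, against 5.71 to 6.06 CPM. The mean atlas stage of null C was 9.01 days, against 8.88 to 8.89 days in the other E9.5 null libraries.

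The genotype difference of *Cwc22* was larger at E9.5 than at E8.5, by a log2 value of 1.14 (adjusted p = 0.0152, interaction term in edgeR). The genotype difference in the share of endoderm cells labelled Pharyngeal endoderm changed between the stages by 29.4 percentage points (exact permutation test, p = 0.0143). That test was added after the difference was seen, so its p is not independent evidence. The cause of either was not tested.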

How the results depend on the processing

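Of 1343 fold changes of named genes under the alternatives, 0 reversed, 1029 kept their call and 314 lost it, 218 of them among the 699 that left out 1 library. E8.5 calls, 11 in the main test, were 3 with DESeq2, 2 in 1 fit over both stages, 20 with no low-count filter and 19 with no fold threshold. In the fit over both stages, leaving out an E8.5 library leaves 1 in its group, so those counts are not given. E9.5 calls, 8 in the main test, were 5 in 1 fit over both stages, 32 with no low-count filter and 20 with no fold threshold. The fit over both stages kept 3 of the 8 main calls. Without 1 E9.5 library that fit made 3 to 7 calls and kept 2 to 4 of the 8, so others were new. WT stage calls, 298 in the main test, were 169 with DESeq2, 915 with no fold threshold and 125 (without E8.5 WT B) to 335 without 1 library. Null stage calls, 198 in the main test, were 108 with DESeq2 and 110 (without E8.5 null B) to 217 without 1 library. With limma-voom, null stage calls were 75 higher and 68 lower, against 145 and 53 in the main test. These totals can include new genes. DESeq2 kept 163 of the 298 WT and 100 of the 198 null main calls. Without 1 E9.5 library, 219 to 253 of the WT and 134 to 166 of the null main calls were kept. The 217 null calls were without E8.5 null A. Leaving out an E8.5 library leaves 1 in its group, so the totals of those runs do not measure how well the main calls hold. The 1 interaction call became 2 with DESeq2, 4 with no low-count filter and 0 to 4 without 1 library. The *Stat3* difference was −2.43 to −1.64 CPM without 1 library. The atlas stage difference reversed to −0.0104 days with the median of each library. The cause of these shifts was not tested. The E8.5 comparison has 2 libraries per genotype, with 26 cells in E8.5 null B, which limits its precision. No paired analysis was possible because the library names in the cell table match no sample title, so no library carries a replicate or pool number, and a pairing read from expression was not used.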
